A study of Mus musculus with 48 samples.

Results

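The insulin, insulin-like growth factor (IGF) and growth hormone genes of the liver were followed through 10 transcripts: Insr, Irs1, Irs2, Igf1, Igfals, Igfbp1, Igfbp2, Ghr, Socs2 and Cish. They were found by symbol among the 22354 genes of the count table, and all 10 were among the 13646 genes with enough reads to be tested. The livers came from 48 female C57BL/6J mice, 25 WT and 23 KO. KO mice lacked the clock transcription factor Bmal1 (gene symbol Arntl) in their adipocytes, and the driver of the deletion is not given in the sources used here. Both genotypes were kept in darkness for 1 day and fasted for 24 h before collection at ZT0, ZT4, ZT8, ZT12, ZT16 or ZT20 (ZT, hours of the former light cycle). Each genotype had 4 mice per time; ZT16 was uneven, with 5 WT mice and 3 KO mice. Mice were 28.75 to 105 weeks old. The mice of ZT20 were the youngest (mean 42.1 weeks in both genotypes, against 56.9 to 73.4 weeks at the other times). KO mice had a median weight of 24.5 g and WT mice one of 21.7 g.

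Insulin binds its receptor, Insr, which signals through the docking proteins Irs1 and Irs2; in the fasted liver, FOXO factors are active and transcribe Irs2 and Igfbp1, and insulin switches this off. Growth hormone binds Ghr and acts through JAK2 and STAT5, which transcribe Igf1, Igfals and the feedback inhibitors Socs2 and Cish. The liver is the main source of circulating IGF1, which travels bound to IGF binding proteins and the acid-labile subunit encoded by Igfals.

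Libraries held 12842000 to 13009800 counts without Alb. Such near equal totals may not be the depth first sequenced; whether reads were drawn to an equal number is not given in the sources used here. Levels are given in CPM, reads scaled to the TMM-adjusted library size. Unless another test is named, an adjusted p is that of edgeR's quasi-likelihood F test on log2 differences of KO minus WT or between times, corrected over all genes after Benjamini and Hochberg and called below 0.05. Each of the members other than Irs2 had at least 72 reads in every library, and Irs2 had 1 to 801. The summed level of 9 hepatocyte markers was 25024 to 55290 CPM, against 8.99 to 43.7 CPM for 8 adipocyte markers, and no tested gene of 9 marker lists passed the genotype test. The highest library sums lay well above the medians for pancreas (up to 247 CPM in KO, median 8.43), neutrophil (up to 453 CPM in WT and 560 in KO, medians 6.60 and 6.37) and Kupffer cell and macrophage markers (up to 688 in WT and 402 in KO, medians 153 and 195); their part in the results was not tested. Libraries differed in how the level of a gene followed its GC content, with GC slopes between -0.80 and 0.61 (log2 units for each 10 points of GC). KO ZT16 replicate 2 and KO ZT4 replicate 1 stood apart from their groups, as described below. KO ZT16 replicate 3 had the highest value of all libraries for 7.58% of the genes tested and the lowest for 10.8%. Both were the largest shares of any library, and its GC slope was -0.74. Arntl was present in liver at 0.819 to 43.8 CPM in WT and 1.58 to 37.04 CPM in KO; liver is not the tissue of the deletion, so it checks no label. In bulk tissue, fewer cells of a type and less RNA per cell cannot be told apart.

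Promoter sequences of 8 members were found in RefSeq (build GRCm38.p6, 250 bases before to 50 after the gene start, 12 entries), and Insr and Socs2 had none there. Stretches of 4 members are shown as examples of 3 sequences named after regulators, which Igfals and Igfbp2 hold in part too: the FOXO-bound insulin response core CAAAACA (or TGTTTTG on the other strand), the clock E-box CACGTG and the STAT5 element TTCNNNGAA. Capitals mark the matches. Each is printed 5′ to 3′ on the strand of its gene.
Igfbp1 (chr11:7197659-7197705, plus strand): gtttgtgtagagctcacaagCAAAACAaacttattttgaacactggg
Irs2 (chr8:11008940-11008993, minus strand): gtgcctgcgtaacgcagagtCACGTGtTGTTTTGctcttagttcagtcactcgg
Irs1 (chr1:82291445-82291574, minus strand): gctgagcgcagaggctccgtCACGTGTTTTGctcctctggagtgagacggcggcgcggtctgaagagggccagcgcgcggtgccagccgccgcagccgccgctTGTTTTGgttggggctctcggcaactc
Cish (chr9:107296639-107296678, plus strand): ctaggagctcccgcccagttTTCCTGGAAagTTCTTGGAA

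Counted from 0 at the base that follows the 250 upstream bases, the insulin response core of Igfbp1 lies at -108 to -102. In Irs2 an E-box at -44 to -39 is followed by the core at -37 to -31. In Irs1 the E-box at -115 to -110 and a core at -111 to -105 share 2 bases, and a second core lies at -32 to -26. Cish has STAT5 elements at 0 to 8 and at 11 to 19. Among all 32851 promoters of the table, 6.28% hold the core, 7.15% the E-box and 8.3% the STAT5 element, searched on both strands. Of the 8 members, the core was in 3 (Igfbp1, Irs1, Irs2), the E-box in 3 (Irs1, Irs2, Igfbp2) and the STAT5 element in 2 (Cish, Igfals). The longer FOXO site GTAAACA was in 1, Igfals (3.65% of all promoters), and the D-box TTATGNAA in 0 (3.38%). Genes with several entries had more chances of a match, and a match of letters does not show binding.

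Per kilobase of exon, Igfbp2 was the most abundant member (mean 358 CPM per kb), followed by Igfbp1 (156), Igf1 (71.3), Ghr (53.1), Igfals (27.1), Insr (13.5), Irs1 (4.63), Socs2 (4.39), Cish (2.32) and Irs2 (1.73). Neighbours in this order overlapped between libraries, apart from Insr (9.46 to 18.2 CPM per kb) and Irs1 (2.78 to 6.86). Igf1 spanned 43.9 to 129 CPM per kb and Ghr 22.7 to 93.01, and Socs2 (1.60 to 17.1) enclosed the whole range of Irs1. In absolute units Igfbp1 had the widest span, 7.50 to 2469 CPM per kb; as a ratio that of Irs2 was wider, 0.0129 to 11.02 CPM per kb, its lowest value resting on 1 read. Insr varied least between mice, with a coefficient of variation of 15.5% over all 48 libraries against 225% for Igfbp1 and 118% for Irs2.

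**Figure D1:**
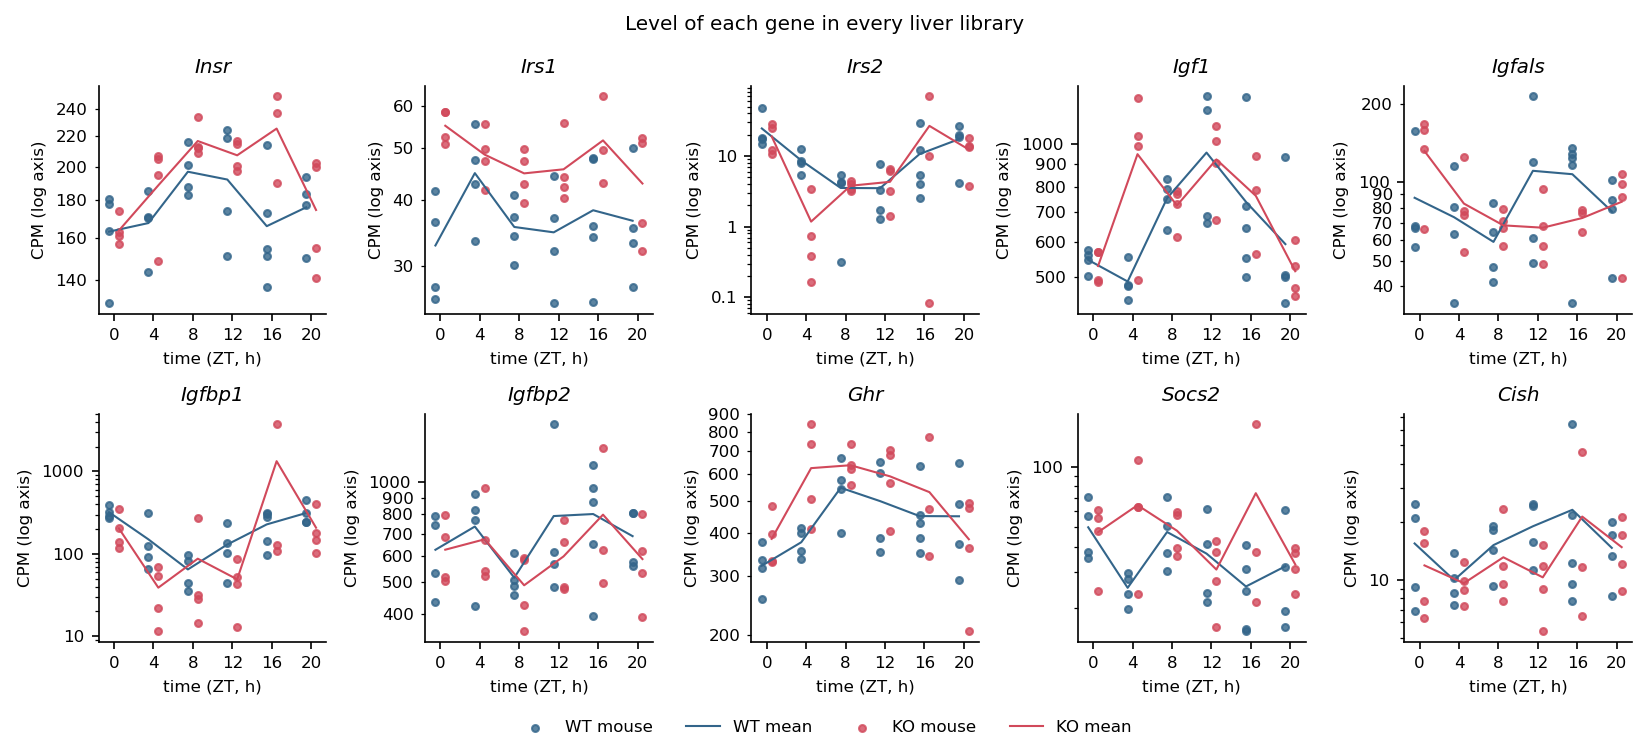
Level of each gene (CPM, log axis) against collection time, with 1 point per mouse and lines through the group means of WT (blue) and KO (red). Irs2 and Igfbp1 swing with time, Irs1 means lie higher in KO at 6 of 6 times, and KO ZT16 replicate 2 carries the top Igfbp1 point at 3766 CPM.

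The first comparison asked which members differed between genotypes over the whole day. Irs1 (mm9 chr1:82229676-82287991), which links the insulin and IGF receptors to PI3 kinase, rose in KO and was the 1 member of 10 that passed (background 1.4% of genes tested; 191 genes). WT mice ranged from 25.5 to 55.7 CPM with a median of 35.7, and KO mice from 31.97 to 62.7 CPM with a median of 49.6. The genotypes overlapped as a whole, but the KO mean was higher at 6 of 6 times. Means were 37.1 ± 8.39 CPM (SD, n = 25) in WT and 48.01 ± 7.68 CPM (SD, n = 23) in KO, a log2 difference of 0.38 (SE 0.08, adjusted p = 0.0103, by edgeR). The difference passed on leaving out each of the 48 libraries (0.35 to 0.41) and with the GC slope as a covariate (0.33, adjusted p = 0.0165). With body weight as a covariate it was 0.32 and no longer passed (adjusted p = 0.181).

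Irs1 was most separate at ZT0. The 4 WT mice were at 36.2, 25.9, 27.3 and 41.6 CPM, and the 4 KO mice at 58.5, 52.7, 58.7 and 50.9 CPM. Every KO mouse lay above every WT mouse. Among all members and times, the genotypes were without overlap only here and for Irs2 at ZT4. The share of all genes tested that separate in this way was not computed. At ZT4, by contrast, the WT values 33.4, 47.6, 42.8 and 55.7 CPM enclosed the KO values 55.7, 47.4, 49.9 and 41.7 CPM. The ZT0 log2 difference of 0.75 (SE 0.20) did not pass over all genes (adjusted p = 0.297, by edgeR).

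**Figure D2:**
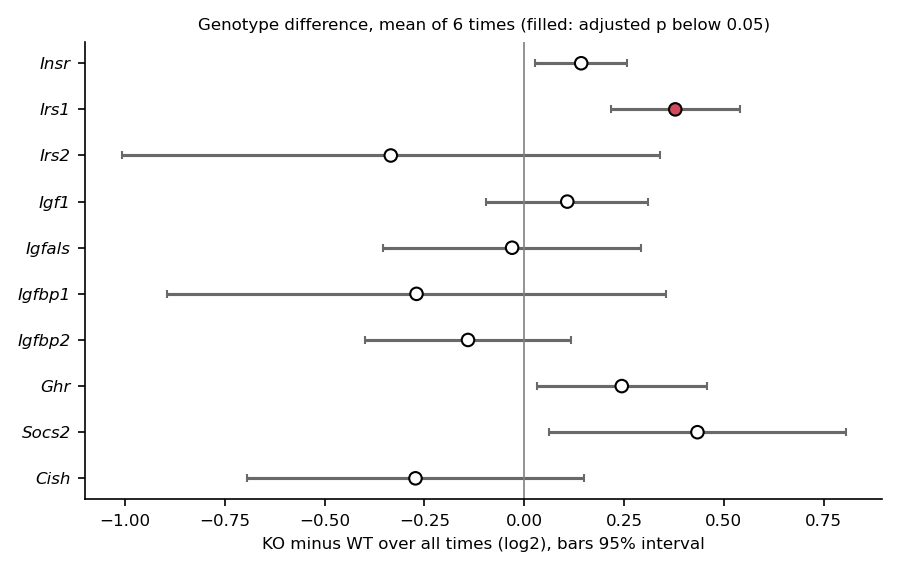
KO minus WT over all times for each gene (log2; points, with bars for the 95% interval from the SE). Irs1 at 0.38 is the filled point, the only one past an adjusted p of 0.05; the intervals of Insr, Ghr and Socs2 also lie above 0 before adjustment over genes.

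The other components of insulin signalling did not pass. Insr, the receptor itself, had a mean of 176 ± 25.7 CPM in WT (SD, n = 25) and 195 ± 29.5 CPM in KO (SD, n = 23), with a log2 difference of 0.14 (SE 0.06). Its KO mean was higher at 5 of 6 times (adjusted p = 0.211, by edgeR). Irs2 (mm9 chr8:10986980-11008458), the other docking protein, had 11.3 ± 10.99 CPM in WT and 10.5 ± 15.01 CPM in KO. Its log2 difference of -0.33 (SE 0.34) became 0.02 with the GC slope as a covariate and -0.74 without KO ZT16 replicate 2, so no direction can be given.

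The IGF ligand and its carriers did not pass either. Igf1 (mm9 chr10:87321010-87399792) averaged 681 ± 250 CPM in WT (SD, n = 25) and 732 ± 235 CPM in KO (SD, n = 23), a log2 difference of 0.11 (SE 0.10) that was -0.02 with the GC slope as a covariate. Igfals, which prolongs the life of IGF1 in blood, averaged 86.8 ± 43.4 and 85.05 ± 33.4 CPM (-0.03, SE 0.16). Igfbp2, another carrier, averaged 697 ± 255 and 621 ± 203 CPM (-0.14, SE 0.13).

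Igfbp1 (mm9 chr11:7097785-7102549), a carrier that insulin represses acutely, had a median of 237 CPM in WT and 103 CPM in KO, though the KO mean, 276 CPM, was above the WT mean of 202 CPM. The KO mean rested on 1 mouse: KO ZT16 replicate 2 had 3766 CPM, while the highest of the other 47 libraries had 454 CPM. The log2 difference was -0.27 (SE 0.32, adjusted p = 0.652, by edgeR), and -0.85 without that mouse (adjusted p = 0.0796).

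On the growth hormone side, Ghr (mm9 chr15:3267760-3533492) averaged 441 ± 123 CPM in WT (SD, n = 25) and 525 ± 168 CPM in KO (SD, n = 23), a log2 difference of 0.24 (SE 0.11). Its KO mean was higher at 5 of 6 times, and the difference did not pass (adjusted p = 0.244, by edgeR) and was 0.10 with the GC slope as a covariate. Socs2, which targets the growth hormone receptor for degradation, averaged 35.8 ± 17.2 and 48.5 ± 32.02 CPM. Its log2 difference of 0.43 (SE 0.19, adjusted p = 0.238, by edgeR) was 0.21 without KO ZT16 replicate 2. Cish, the other feedback inhibitor, had the opposite sign, -0.27 (SE 0.22), with 16.5 ± 11.6 and 13.2 ± 8.58 CPM. Of the 10 members, 4 had an unadjusted p under 0.05, against 17.1% of all genes tested. The median log2 difference of the members was 0.04, and that of all genes -0.00474.

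Single times gave 0 members past the threshold at any of the 6 times by edgeR. The share of all genes called was 0.0147% for ZT0, 0.0366% for ZT4 and 0.022% for ZT16, and 0% for each of the other times. At an unadjusted p under 0.05 the members numbered 1 at ZT0, 5 at ZT4, 4 at ZT16 and 0 at the others, where 5.53%, 23.3%, 6.65% and, for ZT8, ZT12 and ZT20, 1.82% to 4.4% of all genes reached it. DESeq2 called 1 member, Igf1 at ZT4 (log2 difference 0.97, adjusted p = 0.0286), where it called 192 genes in all. ZT4 and ZT16 are therefore described mouse by mouse.

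At ZT4 the Irs2 values were 8.59, 12.7, 5.31 and 7.96 CPM in WT and 3.43, 0.724, 0.164 and 0.387 CPM in KO. Every KO mouse lay below every WT mouse, again with no share of all genes computed, and the 2 lowest rest on 2 and 5 reads. The log2 difference was -2.86 (SE 0.93, adjusted p = 0.124, by edgeR). Igfbp1 had 91.1, 316, 66.0 and 126 CPM in WT and 53.3, 68.2, 21.9 and 11.4 CPM in KO, which overlapped by 1 KO mouse. Its log2 difference was -1.95 (SE 0.80, adjusted p = 0.162, by edgeR).

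Igf1, Ghr and Socs2 had the other sign at ZT4, while Igfals (log2 difference 0.17) and Cish (-0.05) differed little beside their SEs of 0.40 and 0.53. Igf1 had 475, 555, 478 and 443 CPM in WT and 491, 1041, 1267 and 991 CPM in KO. KO replicates 2 to 4 lay far above all WT mice, and KO replicate 1 lay among them. Ghr showed the same arrangement, with 355, 415, 401 and 335 CPM in WT and 412, 504, 842 and 737 CPM in KO. Socs2 followed with 19.6, 27.7, 29.6 and 23.3 CPM in WT and 23.4, 63.1, 108 and 62.9 CPM in KO. The log2 differences were 0.96 (SE 0.25), 0.73 (SE 0.27) and 1.36 (SE 0.47), none past the threshold (adjusted p = 0.0964, 0.137 and 0.132, by edgeR).

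KO ZT4 replicate 1 also differed from its group in the GC slope. Its slope was 0.50, those of KO replicates 2 to 4 were -0.33, -0.80 and -0.68, and those of the 4 WT mice were 0.53, 0.33, 0.02 and -0.03. Without KO ZT4 replicate 1, Irs2, Igf1, Ghr and Socs2 passed at ZT4 (adjusted p = 0.0118 to 0.0238, by edgeR), as did 3354 genes in all. With the GC slope as a covariate and all mice kept, 0 members and 0 genes passed, and the log2 differences were -2.19 for Irs2, 0.47 for Igf1, 0.25 for Ghr and 1.16 for Socs2.

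At ZT16 the values of Igfbp1, Socs2 and Irs2 turned on a single mouse, KO ZT16 replicate 2. Igfbp1 had 142, 281, 97.7, 306 and 311 CPM in the 5 WT mice and 129, 3766 and 109 CPM in the 3 KO mice. Without replicate 2 the KO mice averaged 119 CPM, and the log2 difference went from 2.55 (SE 0.79) to -0.93. Socs2 had 31.2, 24.1, 41.02, 15.7 and 15.3 CPM in WT and 21.2, 163 and 37.8 CPM in KO, a log2 difference of 1.53 (SE 0.47) that was 0.22 without replicate 2. Irs2 had 12.3, 4.02, 5.40, 2.55 and 28.9 CPM in WT and 10.1, 69.7 and 0.0816 CPM in KO. Both the highest and the lowest Irs2 value of all 48 libraries thus lay among these 3 KO mice, and the lowest was a single read. Insr had 173, 214, 151, 137 and 154 CPM in WT and 190, 250 and 237 CPM in KO, and Irs1 35.7, 47.97, 33.97, 25.6 and 47.7 CPM in WT and 49.6, 43.04 and 62.7 CPM in KO. Each overlapped by 1 KO mouse, and neither passed (0.44 for both, adjusted p = 0.505 and 0.731, by edgeR). Without replicate 2 the differences were 0.37 for Insr and 0.56 for Irs1. Without replicate 3 they were 0.40 and 0.27.

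KO ZT16 replicate 2 had the highest value of all 48 libraries for 4 of the 10 members: Insr (250 CPM), Irs2, Igfbp1 and Socs2. Of all genes tested, 4.87% were highest in that library. Of the 18 FOXO and insulin target genes, which include Irs2 and Igfbp1, 9 were highest there and 1 lowest. Among the 9 were Ppargc1a, a coactivator of gluconeogenesis, at 106 CPM (next library 43.5) and Pck1, the gluconeogenic enzyme, at 8402 CPM (next 6278). Also highest there were 5 of 16 growth hormone targets, 3 of 11 counter-regulatory and nutrient receptors and 8 of 30 insulin receptor signalling genes. The counts were 2 of 15 for insulin signalling inhibitors, 2 of 22 for growth hormone receptor and JAK-STAT and 1 of 13 for the IGF list, members included. The leptin receptor gene Lepr stood at 516 CPM, 8.49 times the next library. The GC slope of KO ZT16 replicate 2, 0.17, lay within the range of the other libraries, and its TMM factor of 0.892 was the lowest of all. Their part in these values was not tested.

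With time of day, over both genotypes, Irs2, Igf1, Igfbp1 and Ghr changed by edgeR, 4 of 10 members, where 28.7% of all genes tested did. The FOXO targets Irs2 and Igfbp1 were lower from ZT4 to ZT12, and higher at ZT20 and ZT0. At ZT16 the KO means of 26.6 CPM for Irs2 and 1335 CPM for Igfbp1 were 5.09 and 119 CPM without replicate 2. Igf1 and Ghr were arranged the other way, high at ZT8 and ZT12 and low at ZT0, and in KO both were high at ZT4 too. All 4 also passed with age as a covariate (adjusted p = 0.000166 to 0.0248, by edgeR). The times set against each other below were chosen as high or low from these same values. Their separation mouse by mouse is therefore a description and adds no test. The share of all genes that separate in this way was not computed.

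Irs2 had the largest range among the members, 7.26-fold between ZT0 and ZT4 in mean log2 CPM over both genotypes (adjusted p = 0.000242, by edgeR). ZT4 was the lowest time through KO, with a mean of 1.18 CPM, where replicates 2 to 4 held 9, 2 and 5 reads. In WT the means were 8.64 CPM at ZT4, 3.52 CPM at ZT8 and 3.50 CPM at ZT12. In WT at ZT0 it stood at 47.9, 17.3, 14.8 and 17.9 CPM. In WT at ZT8 it had 5.36, 0.314, 4.30 and 4.11 CPM, all below every ZT0 value. In KO the ZT0 mice had 27.9, 10.5, 12.1 and 25.1 CPM and the ZT8 mice 3.98, 4.49, 3.22 and 3.45 CPM, again without overlap.

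Igfbp1 ranged 5.47-fold between ZT16 and ZT8 (adjusted p = 9.06e-05, by edgeR), and the change passed without KO ZT16 replicate 2 as well (adjusted p = 0.00124). ZT16 was the highest time through that replicate. WT means were 320 CPM at ZT0, 227 CPM at ZT16 and 313 CPM at ZT20. KO means were 204 CPM at ZT0 and 207 CPM at ZT20, and that of ZT16 was 119 CPM without replicate 2. WT mice had 291, 273, 320 and 396 CPM at ZT0 and 44.3, 96.7, 81.3 and 35.7 CPM at ZT8. At ZT20 the WT values were back at 243, 245, 310 and 454 CPM. The ZT8 mice lay below every mouse of the other 2 times. In KO at ZT8 replicate 2 stood at 275 CPM, and the other 3 mice at 31.3, 28.2 and 14.3 CPM.

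Igf1 ranged 1.70-fold between ZT12 and ZT0 (adjusted p = 0.00395, by edgeR). WT mice had 503, 545, 575 and 560 CPM at ZT0 and 1281, 1193, 662 and 685 CPM at ZT12. KO mice had 487, 568, 492 and 568 CPM at ZT0 and 1095, 1014, 906 and 673 CPM at ZT12. In both genotypes every ZT12 mouse exceeded every ZT0 mouse, these times being picked as the highest and lowest.

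Ghr ranged 1.68-fold between ZT8 and ZT0 (adjusted p = 0.0228, by edgeR), and the call was lost with the GC slope as a covariate (adjusted p = 0.0512). WT mice had 317, 257, 334 and 376 CPM at ZT0 and 539, 667, 402 and 575 CPM at ZT8. KO mice had 397, 331, 483 and 330 CPM at ZT0 and 556, 636, 733 and 620 CPM at ZT8. The 2 times, picked as the highest and lowest, did not overlap in either genotype. Insr missed the threshold (adjusted p = 0.0540, by edgeR) with a 1.27-fold range; it passed by DESeq2 (adjusted p = 0.0232) and with the GC slope as a covariate (adjusted p = 0.0471). Irs1 (adjusted p = 0.539), Igfals (0.328), Igfbp2 (0.216), Socs2 (0.472) and Cish (0.181) did not pass.

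A 24 h cosine was then fitted to each genotype. In WT, 2 of 10 members passed, Irs2 and Igf1 (background 16.3%), and in KO 5 of 10, Insr, Irs2, Igf1, Igfbp1 and Ghr (background 17%; by edgeR). Peaks, amplitudes and their SEs came from a separate least-squares fit to log2 CPM within each genotype. An amplitude of several SE can therefore go with a call that edgeR missed. The fitted peak of Irs2 was at ZT22.3 in WT (SE 0.757 h) and ZT19.4 in KO (SE 1.61 h), with amplitudes of 1.55 (SE 0.32) and 1.34 (SE 0.56) on the log2 scale. Igfbp1 peaked at ZT20.8 and ZT19.2, with amplitudes of 1.18 (SE 0.21) and 1.65 (SE 0.45). Igf1 peaked at ZT12.2 in WT and ZT9.46 in KO, with amplitudes of 0.40 (SE 0.11) and 0.37 (SE 0.11), and Ghr at ZT11.6 and ZT8.79, with amplitudes of 0.29 (SE 0.10) and 0.42 (SE 0.12).

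Of the 5 KO calls, those of Insr, Igf1 and Ghr were the least firm. Their adjusted p-values rose to at most 0.0711, 0.0864 and 0.0774 on leaving out 1 library (by edgeR). That library was KO ZT0 replicate 1 for Insr and KO ZT20 replicate 1 for Igf1 and Ghr. Of the 48 such fits, the call was lost in 8 for Insr, 11 for Igf1 and 1 for Ghr. The Igf1 call was also lost with the GC slope as a covariate (adjusted p = 0.0973). In WT, Igfbp1 missed the threshold (adjusted p = 0.103) and passed without KO ZT16 replicate 2 (adjusted p = 0.0207), which enters the shared estimate of spread. Ghr in WT missed it too (adjusted p = 0.119), and passed with the GC slope as a covariate (adjusted p = 0.0292).

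**Figure D3:**
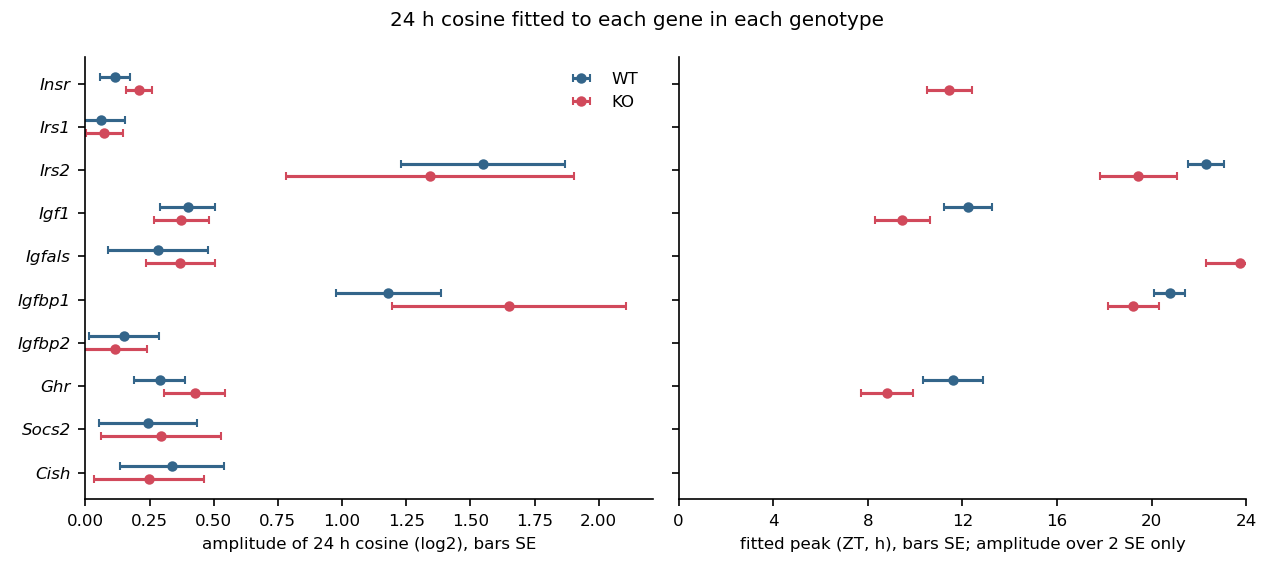
Amplitude of the fitted 24 h cosine (log2, left) and its peak time (ZT in hours, right) for each gene in WT (blue) and KO (red), with bars for the SE; peaks are drawn where the amplitude exceeds 2 SE. Irs2 and Igfbp1 have amplitudes above 1, and the others stay at or below 0.42.

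The difference in rhythm between the genotypes was tested directly. By edgeR, 0 of 10 members passed (background 0.00733%, 1 gene); Igfals and Igfbp1 had an unadjusted p under 0.05, and DESeq2 called 0 members and 5 genes. The interaction of genotype with time gave 0 of 10 members by edgeR as well (background 0.00733%, 1 gene). Irs2, Igf1, Igfbp1 and Socs2 had an unadjusted p under 0.05 there, and DESeq2 called 0 members and 7 genes. Members that passed in KO and not in WT are therefore not shown to differ in rhythm.

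Within groups, neither weight nor age was tied to any member past the threshold by edgeR. For body weight 0 members passed (background 0%), and 0 had an unadjusted p under 0.05. For age 0 members passed (background 0.0366%, 5 genes), and 1 had an unadjusted p under 0.05, Igfals, with 0.11 log2 units per 10 weeks (SE 0.05, adjusted p = 0.775, by edgeR). DESeq2 was not run on these slopes.

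Members were also compared mouse by mouse, as deviations from the mean of each group. The share of pairs of other genes that would pass was not computed, so the counts of pairs below have no background. Of the 45 pairs, 14 passed (permutation within groups, two-sided, Benjamini-Hochberg adjustment over the 45 pairs), 8 positive and 6 negative, and 16 passed by Spearman's rho, those 14 with Insr and Irs2 (rho = -0.47, adjusted p = 0.0192 by permutation) and Socs2 and Cish. Igf1 deviated together with Insr (r = 0.69, rho = 0.66, adjusted p = 0.00045 and 0.00075 by permutation) and with Ghr (r = 0.68, rho = 0.68, adjusted p = 0.00045 for both by permutation). Without the 2 mice farthest from the median the r values were 0.60 and 0.64. Irs2 went against Ghr (r = -0.60, rho = -0.57, adjusted p = 0.00338 and 0.00456 by permutation; r = -0.52 without the 2 mice farthest out).

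The same deviations followed the GC slope of the library. The correlation with the slope was -0.80 for Insr, -0.81 for Igf1, -0.78 for Ghr and -0.40 for Irs1 (rho -0.78, -0.75, -0.75 and -0.42). It was 0.80 for Igfals, 0.71 for Irs2, 0.59 for Igfbp2 and 0.41 for Cish (rho 0.78, 0.75, 0.55 and 0.40). These 8 passed (permutation, Benjamini-Hochberg adjusted p = 2.5e-05 to 0.0301 over 10 members), and Igfbp1 (0.25) and Socs2 (-0.23) did not (adjusted p = 0.183 and 0.248 by permutation). Without the 2 libraries farthest from the median slope, these r ran from -0.75 to -0.44 and from 0.41 to 0.76. Negative correlations were those of transcripts of 38.0% GC (Igf1), 40.9% (Ghr), 46.8% (Insr) and 50.3% (Irs1), and positive ones those of 53.1% (Cish), 56.6% (Irs2), 58.9% (Igfals) and 62.1% (Igfbp2). The slope was itself computed from gene levels against GC content, so this order of signs is in part built in. The share of all genes that would pass the same correlation was not computed. In levels, not deviations, the 4 libraries with the lowest slopes were also the 4 with the lowest Irs2, at 0.0816, 0.164, 0.314 and 0.387 CPM. The match ended there. WT ZT16 replicate 2 and WT ZT20 replicate 2, at slope ranks 5 and 6 from the lowest, had 4.02 and 4.20 CPM (Irs2 ranks 17 and 19). WT ZT16 replicate 4 had slope rank 47 and Irs2 rank 9.

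**Figure D4:**
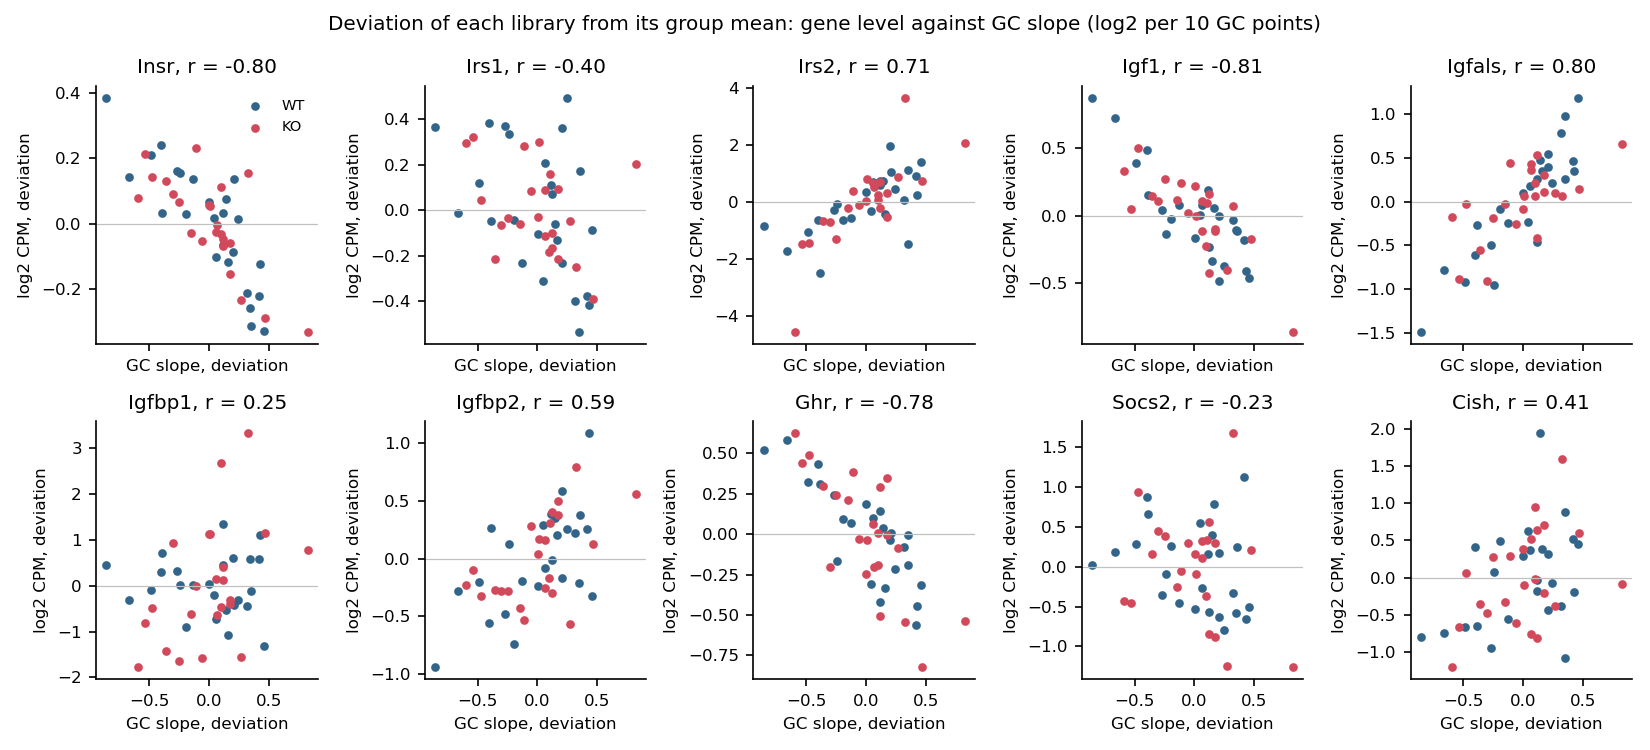
Deviation of each library from its group mean for each gene (log2 CPM, vertical) against the deviation of its GC slope (log2 per 10 GC points, horizontal), WT blue and KO red. Insr, Igf1 and Ghr fall along the slope (r = -0.80, -0.81 and -0.78), Igfals and Irs2 climb (0.80 and 0.71), and Igfbp1 and Socs2 show little trend.

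With a linear term in the GC slope removed, 3 of the 45 pairs passed and 1 of them was among the former 14. That pair was Igf1 with Socs2, both STAT5 targets (r = 0.52 before, adjusted p = 0.0215, and 0.57 after, adjusted p = 0.0057, by permutation). Socs2 with Cish, the feedback inhibitors, went from 0.43 (adjusted p = 0.0573 by r, 0.0436 by rho) to 0.59 (adjusted p = 0.0057, by permutation). Igfals with Ghr turned from -0.37 (adjusted p = 0.0573) to 0.67 (adjusted p = 0.00135, by permutation). Without the 2 mice farthest out, the r before removal was 0.50, 0.35 and -0.28 for these 3 pairs, in the order given. No such value was computed after removal. KO ZT16 replicate 2 had the highest Socs2 of all libraries (163 CPM) and the highest Cish in KO (45.9 CPM), and its part in these pairs was not tested. Insr with Igf1 went from 0.69 to 0.13, and Igf1 with Ghr from 0.68 to 0.14.

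**Figure D5:**
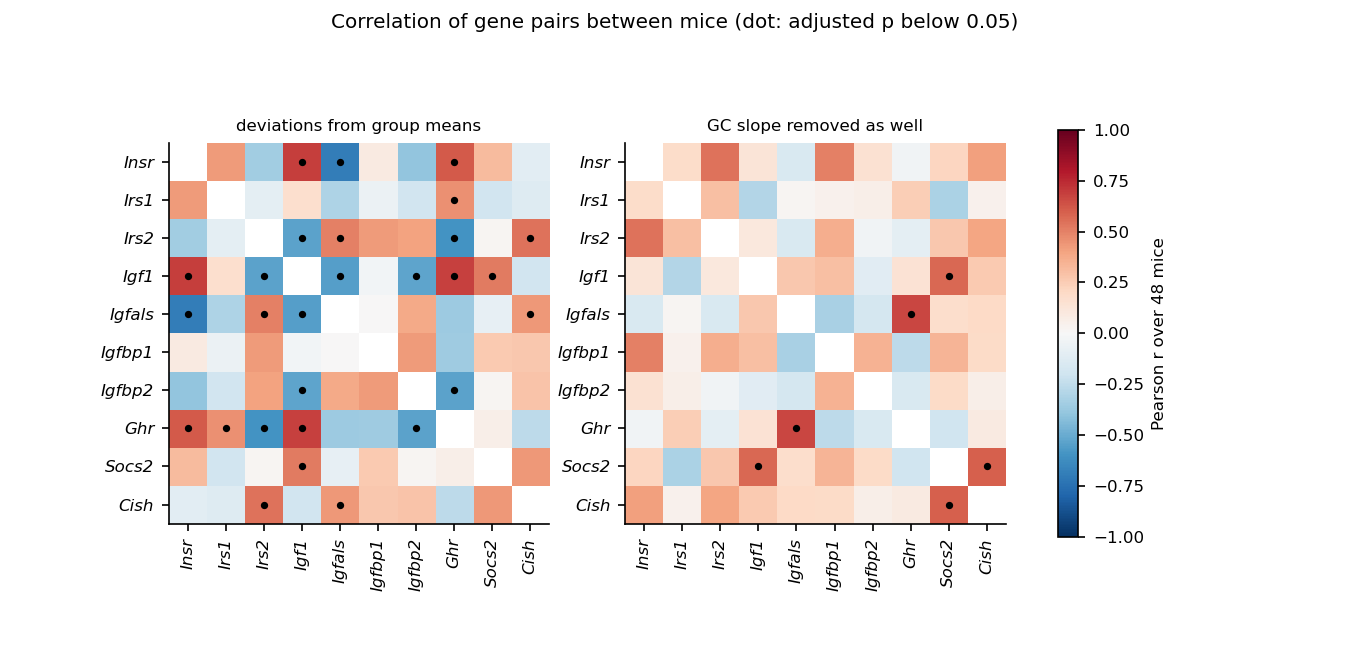
Pearson correlation of each pair of genes over 48 mice, from deviations from group means (left) and with the GC slope removed (right); a dot marks an adjusted p below 0.05. Dots fall from 14 pairs to 3: Igf1 with Socs2, Socs2 with Cish, and Igfals with Ghr.

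The pathway around the members was covered by 7 lists with 111 other genes, of which 105 were tested. Over all times 1 rose, 1 fell and 103 did not pass, a share to read against the 1.4% of all genes. Tob1, an antiproliferative gene of the growth hormone target list, fell from 142 ± 34.2 CPM in WT (SD, n = 25) to 96.9 ± 30.6 CPM in KO (SD, n = 23). Its log2 difference was -0.55 (SE 0.12, adjusted p = 0.0103, by edgeR), and it passed with body weight as a covariate (-0.69, adjusted p = 0.0175) but not with the replicate block and the GC slope (-0.52, adjusted p = 0.0551). Mup1, a urinary protein gene of a family with near-identical copies, rose by 1.68 (SE 0.44) from 0.397 to 1.12 CPM, a call that did not hold in 25 of the 48 fits with 1 library less (adjusted p up to 0.1005), with body weight as a covariate (1.21, adjusted p = 0.340), with the GC slope (adjusted p = 0.0690) and without the filter on low counts (adjusted p = 0.0556, by edgeR); which copy it reflects is uncertain. The median log2 difference of the 105 genes was -0.02.

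List by list, insulin receptor signalling had 0 of 27 genes past the threshold (smallest p, Gsk3a, log2 difference -0.46, adjusted p = 0.360), and its inhibitors 0 of 15 (Socs3, -0.51, adjusted p = 0.116), by edgeR over all genes. FOXO and insulin target genes had 0 of 16 (Trib1, -0.43, adjusted p = 0.0842), and IGF ligands, binding proteins and receptors 0 of 9 (Igfbp5, -0.66, adjusted p = 0.152). The receptor and JAK-STAT list of growth hormone had 0 of 19, and counter-regulatory and nutrient receptors 0 of 11 (Adipor2, 0.23, adjusted p = 0.264). At an unadjusted p under 0.05 these lists held 0, 4, 5, 4, 6 and 1 genes, in the order given, where 17.1% of all genes reached it. DESeq2 called 4 of the 105 genes, and 356 genes in all.

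With time of day 34 of the 105 genes changed (32.4%, against 28.7% of all genes; by edgeR). The share was highest among FOXO and insulin target genes, 10 of 16, including Ccng2, a cyclin induced by FOXO (2.70-fold, high at ZT16), and Insig2 and Insig1, which hold SREBP in the endoplasmic reticulum (4.02-fold, high at ZT0, and 2.85-fold, high at ZT16). In insulin receptor signalling 6 of 27 changed, led by Pik3r1, the regulatory subunit of PI3 kinase (2.24-fold, high at ZT12), Foxo1 (2.14-fold, high at ZT16) and the docking protein Gab1 (1.51-fold, high at ZT16). Ccng2 and Foxo1 were highest of all libraries in KO ZT16 replicate 2 (83.0 and 119 CPM). Both calls held without it (adjusted p = 3.00e-09 and 6.49e-06, by edgeR). Among inhibitors 6 of 15 changed, with Grb14, Socs3 and Inppl1 in front (1.63-, 2.49- and 1.84-fold). The Inppl1 call was lost without KO ZT16 replicate 2 (adjusted p = 0.0604, by edgeR), which held its highest value, 57.6 CPM.

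In the IGF list 3 of 9 changed, the binding proteins Igfbp3 (1.82-fold) and Igfbp7 (1.44-fold) and the protease Htra1 (2.04-fold), each high at ZT16. The Htra1 call was lost in 2 of the 48 fits with 1 library less (adjusted p up to 0.0817, by edgeR). In the growth hormone receptor and JAK-STAT list 5 of 19 changed, led by Socs7 and the phosphatase Ptpn11, besides Socs3. Of the growth hormone targets 2 of 12 changed, Trim24 (1.92-fold, high at ZT8) and the fasting hormone Fgf21 (4.49-fold, high at ZT0). Counter-regulatory and nutrient receptors had 3 of 11, among them Met (1.44-fold, high at ZT12) and Lepr; the Lepr call was lost without KO ZT16 replicate 2 (adjusted p = 0.790, by edgeR).

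Across the 12 group means, the genes most like each member are given as a description; the points share their libraries and GC slopes. Ghr was most like Nr3c1, the glucocorticoid receptor gene (r = 0.98), Hpgd (0.98) and Sepsecs (0.98). Insr was most like Sepp1, Deptor and Prkacb (0.95, 0.95 and 0.94), Irs1 like Bphl, Tmem135 and D730039F16Rik (0.86, 0.84 and 0.83), and Irs2 like Ptpn11, Pgam1 and Flt3l (0.96, 0.96 and 0.95). Igf1 was most like Fmn1, 2410015M20Rik and Llph (0.94, 0.94 and 0.93), and Igfals like Jmjd8, Atp9a and Got2 (0.94, 0.92 and 0.88). Igfbp1 was most like App, 1700017B05Rik and Pxk (0.96, 0.96 and 0.94), and Igfbp2 like Polr2c and Cyp2d22 (0.94 and 0.90). Socs2 was most like AW209491, Plbd1 and 2510006D16Rik (0.90, 0.87 and 0.86), and Cish like Trib1, Plk3 and Zfp259 (0.92, 0.87 and 0.86).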

How the data were processed

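Liver polyA RNA of 48 mice was sequenced from stranded libraries. Per the submitters' processing notes, CASAVA and STAR 2.4.1d were used with build mm9. What was deposited is whole-number counts of reads for each gene; the counting program and annotation are not given in the sources used here. Alb, whose deposited values were multiples of a fixed step and not plain counts, took 5.66% to 14.6% of the total and was left out of library sizes and tests. In R 4.3.3, edgeR 4.0.16 (filterByExpr, TMM factors 0.892 to 1.11) fitted a quasi-likelihood model with 12 group means, and a cosinor model per genotype; p-values were adjusted by Benjamini-Hochberg over 13646 genes, with a threshold of 0.05. DESeq2 1.42.0 was an alternative. Log2 CPM used a prior count of 2. GC content and exon lengths came from GENCODE transcripts of GRCm38, matched by identifier (97.58% of tested genes). Pair tests drew 100000 permutations within groups. Members and lists were chosen with earlier results of these data known. Genes named were the members, up to 4 called genes per list over all times (or the smallest p), up to 3 for time of day, and the 3 most alike genes of each member (a few that the rule names are not reported here) among genes averaging 2 or more log2 CPM. Scripts were tested on simulated data. Libraries of a group came from mice with their own weights. The labels do not tie libraries to the 3 days of construction.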

Additional observations from a re-analysis of the deposited data

Results flagged for a closer look

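Within each group of 4 or 5 mice, a value was singled out where its gap to the nearest mouse took most of the range of the group (Dixon's 95% critical value). This was met in 4 of 110 groups; chance alone gives about 1 in 20. Insr was high in KO ZT8 replicate 2 at 234 CPM, where the other mice had 209 to 212.5 CPM. Irs2 was high in WT ZT0 replicate 1 at 47.87 CPM (others 14.81 to 17.93 CPM), and low in WT ZT8 replicate 2 at 0.3136 CPM (others 4.11 to 5.36 CPM). Igfals was low in WT ZT16 replicate 2 at 34.41 CPM (others 116 to 135 CPM). The GC slopes of these last 2 libraries, -0.65 and -0.63, were among the 5 lowest of the 48, and that of WT ZT0 replicate 1, 0.54, among the 3 highest; the part of the slope in these values was not tested. Groups of 3, and so KO ZT16, were not examined.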

How the results depend on the processing

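Irs1 kept its direction under every alternative run and its call under all but the body weight covariate and the replicate block with the GC slope (adjusted p = 0.0544, edgeR). The number of genes called over all times was 122 without the filter on low counts, 38 with body weight as a covariate and 356 by DESeq2, and members called were 0 with body weight. Other pathway genes called were 1 without the filter, with body weight and with the GC slope, and 4 by DESeq2. Replicate numbers were not taken to pair the mice in the main tests, since not every pair's correlation was over 0.1. That rule cannot exclude that the mice were matched. The correlation ran from -0.49 to 0.60 (median 0.157), and 14 of 23 pairs were over 0.1. Of the 23 KO mice, 12 correlated best with their own number among the 4 or 5 WT mice of their time, and 22 of 23 pairs were of 1 age. With the replicate block 127 genes and 1 member passed, and with block and GC slope 0 members and 1 other pathway gene, Mup1. Directions that turned over all times, none of them called, were those of Igfals (0.0303 with age, 0.28 with the GC slope, 0.0771 with the replicate block, 0.29 with block and GC slope), Irs2 (0.0150) and Igf1 (-0.0151), both with the GC slope; the cause was not tested.

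At ZT0 5 genes passed with RLE scaling or Alb kept, 10 without the filter, with the GC slope or by DESeq2, and 1 with body weight. At ZT4 it was 2 without the filter, 1 with body weight, 0 with the GC slope and 192 by DESeq2, with 1 member by DESeq2. DESeq2 called 2 genes at ZT8 and 3 at ZT12, where no filter, body weight and age gave 1 each. At ZT16 it was 0 without the filter, with Alb kept, body weight or age, 13 with the GC slope and 17 by DESeq2. The interaction had 4 genes with the GC slope and 7 by DESeq2, and the rhythm difference 3 and 5. Rhythmic genes in WT were 4053 with the GC slope, and members rhythmic in KO 3 without the filter. Pairs called fell to 3 with the GC slope removed, and the r of Insr with Ghr became -0.0383, of Irs2 with Igf1 0.10, of Irs2 with Igfals -0.15 and of Igf1 with Igfals 0.27.

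Leaving out each library in turn gave 99 to 484 genes over all times and 1 to 7 other pathway genes, 0 to 9 genes at ZT0, 0 to 3354 at ZT4 (0 to 4 members), 0 to 2 at ZT12 and 0 to 25 at ZT16, 0 to 3 for the interaction, 1 to 2 for the rhythm difference, 1628 to 3691 for KO rhythm (2 to 5 members), 0 to 2 for weight and 0 to 109 for age. The lowest and highest over all times were without KO ZT16 replicate 3 and KO ZT4 replicate 1. Igfals over all times ran from -0.0775 to 0.0585, and Igfbp1 at ZT16 from -0.93 to 3.12. Irs2 at 1 to 801 reads is the member that depth limits most.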
